A study of Rattus norvegicus with 6 samples.

Results

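The genes described here encode nuclear subunits of the 5 enzyme complexes of oxidative phosphorylation, measured in rat epididymis, the coiled duct in which sperm mature, after its basal cells had been parted from the rest. They were taken by symbol (Ndufa, Ndufb, Ndufc, Ndufs, Ndufv, Sdha to Sdhd, Uqcr, Cox5 to Cox8 with their lettered isoforms, and Atp5), with the probe set of the highest mean where a gene had several. The rule gave 88 of the 18166 genes tested: 39 of complex I, 4 of complex II, 9 of complex III, 16 of complex IV and 20 of complex V. Of these, 16 were counted as copy loci, meaning pseudogenes or loci named after a parent gene (such as Atp5mgl4, Ndufb11b or Uqcr10-ps1). The other 72 are called the subunit genes proper here. They include Ndufa4l2 and Cox7a2l, although their symbols mark them as like another gene, and the inhibitor gene Atp5if1. Probes of a copy may also bind transcripts of its parent gene, so values of the copies are uncertain.

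The tissue was that of 48-day-old Sprague-Dawley rats, and magnetic separation yielded a basal fraction and a non-basal fraction. There were 3 arrays of each, of the type RaGene 2.0 ST by Affymetrix, and the values are log2 expression values made by RMA. The labels name 3 rats but tie no array to an animal, nor do they name the surface molecule used for the separation. The spread behind every p-value is thus that of these arrays, and it may be technical. The fractions are mixtures of cells, and in such bulk samples fewer cells of a type cannot be told apart from less RNA per cell.

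Oxidative phosphorylation takes place in the inner membrane of mitochondria. Complex I and complex II pass electrons of NADH and succinate to ubiquinone, complex III hands them to cytochrome c, and complex IV, cytochrome c oxidase, passes them to oxygen. Complexes I, III and IV pump protons, and complex V, the ATP synthase, uses the resulting gradient to make ATP. Most subunits are encoded in the nucleus and made in nearly all cells, but some subunits of complex IV have isoforms restricted to muscle, lung or testis. In the epididymis, clear and narrow cells are known as rich in mitochondria, while basal cells are small cells lying on the basement membrane.

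The labelled fractions were set against marker genes first. All 12 basal epithelial markers measured, Tp63 and Krt14 among them, were higher in the basal fraction, and the list's mean deviation from each gene's own average was 1.01 to 1.37 on basal arrays and -1.72 to -0.999 on non-basal arrays. Of the fibroblast markers, 10 of 10 were lower in the basal fraction, as were 7 of 8 smooth muscle and 8 of 8 endothelial markers. Of the leukocyte markers, 7 of 11 for lymphocytes and 3 of 11 for macrophages were lower. Of the principal cell markers, 2 of 14 were lower, and of the clear and narrow cell markers 0 of 10 passed the test in either direction. The non-basal fraction thus held more transcripts of stroma, vessels and lymphocytes. Most luminal epithelial markers did not pass the test, but this does not show that the fractions were alike in them. Principal cell markers had negative log2 differences, basal minus non-basal, in 13 of 14 cases. Their median was -0.48, with a median standard error of 0.29. Clear and narrow cell markers were negative in 7 of 10 cases, with a median of -0.18 and a median standard error of 0.21. Array medians lay between 6.63 and 6.70, and the number of arrays limits the precision.

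Promoter sequences are shown for the 3 subunit genes that differed between the fractions and for 2 that did not pass the test. The latter were picked for carrying motifs known from promoters of respiratory genes, so the printed genes cannot link motifs to the difference. The sequences are RefSeq's, build GRCr8, read in the direction of the gene from 250 bases before its annotated start to 50 bases after it. Motif letters found on either strand are in capitals. Cox6b2 lies on the plus strand at chr1:78122621-78122920, Ndufa4l2 on the plus strand at chr7:65241919-65242218 and Atp5f1d on the minus strand at chr7:10214301-10214600. The Uqcrc1 window is on the plus strand at chr8:118467973-118468272 and the Ndufa6 window on the minus strand at chr7:115750268-115750567.
Cox6b2: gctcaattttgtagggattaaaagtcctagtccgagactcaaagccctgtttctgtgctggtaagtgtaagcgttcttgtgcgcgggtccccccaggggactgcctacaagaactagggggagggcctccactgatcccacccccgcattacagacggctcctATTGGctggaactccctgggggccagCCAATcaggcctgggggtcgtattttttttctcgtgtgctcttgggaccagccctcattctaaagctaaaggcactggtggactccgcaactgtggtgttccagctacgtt
Ndufa4l2: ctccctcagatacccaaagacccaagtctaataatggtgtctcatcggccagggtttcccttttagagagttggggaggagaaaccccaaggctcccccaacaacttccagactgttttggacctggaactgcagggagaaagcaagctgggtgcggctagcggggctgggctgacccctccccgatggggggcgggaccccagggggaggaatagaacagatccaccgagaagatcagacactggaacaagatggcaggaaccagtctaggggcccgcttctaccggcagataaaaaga
Atp5f1d: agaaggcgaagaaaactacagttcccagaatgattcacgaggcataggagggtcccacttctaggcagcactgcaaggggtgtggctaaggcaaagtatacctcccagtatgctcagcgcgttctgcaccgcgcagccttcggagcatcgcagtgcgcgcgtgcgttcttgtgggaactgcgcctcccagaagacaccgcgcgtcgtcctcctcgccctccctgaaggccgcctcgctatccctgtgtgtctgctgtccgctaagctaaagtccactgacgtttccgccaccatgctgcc
Uqcrc1: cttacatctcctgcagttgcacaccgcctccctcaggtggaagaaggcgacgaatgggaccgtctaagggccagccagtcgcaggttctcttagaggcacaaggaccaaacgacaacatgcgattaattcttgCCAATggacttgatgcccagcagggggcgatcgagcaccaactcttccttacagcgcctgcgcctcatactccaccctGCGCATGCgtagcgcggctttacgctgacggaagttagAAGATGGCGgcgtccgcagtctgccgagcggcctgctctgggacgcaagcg
Ndufa6: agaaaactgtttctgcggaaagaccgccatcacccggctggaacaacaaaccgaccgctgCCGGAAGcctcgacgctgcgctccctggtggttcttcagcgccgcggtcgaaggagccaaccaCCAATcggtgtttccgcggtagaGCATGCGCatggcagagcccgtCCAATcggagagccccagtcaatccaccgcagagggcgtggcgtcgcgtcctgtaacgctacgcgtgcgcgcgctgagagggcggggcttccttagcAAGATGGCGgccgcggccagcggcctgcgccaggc

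The motifs searched, on both strands, were GCGCATGC for NRF1, CCGGAAG for ETS factors, AAGATGGCG for YY1, TCAAGGTCA and its wider form TNAAGGTCA for the oestrogen-related receptors, CCAAT and TATAAA. NRF1, the ETS factor GABP and YY1 are known to act on many nuclear genes of the respiratory chain. Positions are those of the leftmost printed letter, in bases from the annotated start. Ndufa6 held the ETS letters at -190, CCAAT at -127 and -82, the NRF1 letters, on the opposite strand, at -104 and the YY1 letters at 15. Uqcrc1 held CCAAT at -117, the NRF1 letters at -39 and the YY1 letters at -1. Cox6b2 held CCAAT at -87 on the opposite strand and at -61, and the windows of Ndufa4l2 and Atp5f1d held none of the 7 motifs. Windows of several subunit genes that did not pass, Ndufa4, Ndufa12 and Sdhc among them, held none either.

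RefSeq promoters were matched for 65 of the 72 subunit genes and for 7 of the 16 copies. The NRF1 letters were present in 8 of the 65 (12.3%), against 2.66% of all 27457 promoters in the table. The ETS letters were present in 18 (27.7%) against 9.22%, and the YY1 letters in 10 (15.4%) against 1.93%. The wider receptor motif, whose matches include those of the narrower one, was present in 3 (4.62%) against 1.15%, and the narrower one in 2 (3.08%) against 0.412%. CCAAT was about as common in both, in 24 (36.9%) against 37.7%, and TATAAA was in 6 (9.23%) against 14.3%. The members' windows were slightly richer in G and C, with a median of 55.7% against 52.3%. The promoters in the table were not limited to coding or expressed genes. These shares thus do not compare the members with other expressed coding genes.

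The median log2 difference between the fractions was 0.05 for the 8 genes with the NRF1 letters and -0.06 for the 57 without. It was -0.05 both for the 18 genes with the ETS letters and for the 47 without, and 0.03 for the 10 with the YY1 letters against -0.06 for the 55 without. For TATAAA it was 0.10 for the 6 genes with the letters and -0.06 for the 59 without, and for CCAAT -0.08 for 24 and -0.04 for 41. These are descriptions, with no test, and a match of letters does not show that a factor binds.

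Transcripts of most subunits of the 5 complexes differed little between the fractions. Log2 differences, basal minus non-basal, were tested with limma over all 18166 genes with Benjamini-Hochberg adjustment, with a call at an adjusted p under 0.05. Among all genes 14.9% were called, 7.71% higher and 7.14% lower in the basal fraction. Of the 88 members, 2 were higher, 3 were lower and 83 did not pass, which is 5.68% called. The 3 lower genes, Ndufa4l2, Cox6b2 and Atp5f1d, are subunit genes proper, while the 2 higher ones, Atp5mgl4 and Atp5hl1, are copy loci of complex V. Before adjustment 12 members had p under 0.05, 5 higher and 7 lower, against 5443 of the 18166 genes.

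The differences were mostly small, and the arrays bound most of them within 2-fold. The median log2 difference was -0.03 over the 88 members and 0.0034 over all genes, and the median size of the difference, ignoring its sign, was 0.0956 for members and 0.166 for all genes. The estimated difference was under 1.5-fold for 86 of 88 members (97.7%), against 85.7% of all genes. The 95% interval of the difference lay within 2-fold either way for 86 members (97.7%) and 85.2% of all genes. It lay within 1.5-fold for 70 of the 88 members and 11798 of the 18166 genes. The median standard error was 0.138 for members and 0.107 for all genes, so members were measured less precisely. A wider spread makes both a call and a gap between the fractions less frequent. Basal and non-basal arrays did not overlap for 11 members (12.5%), against 32.9% of all genes. Those were 3 members higher in all basal arrays and 8 lower in all of them. Because RMA matches the distributions of the arrays, a shift shared by most genes would not be seen in these values.

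**Figure D1:**
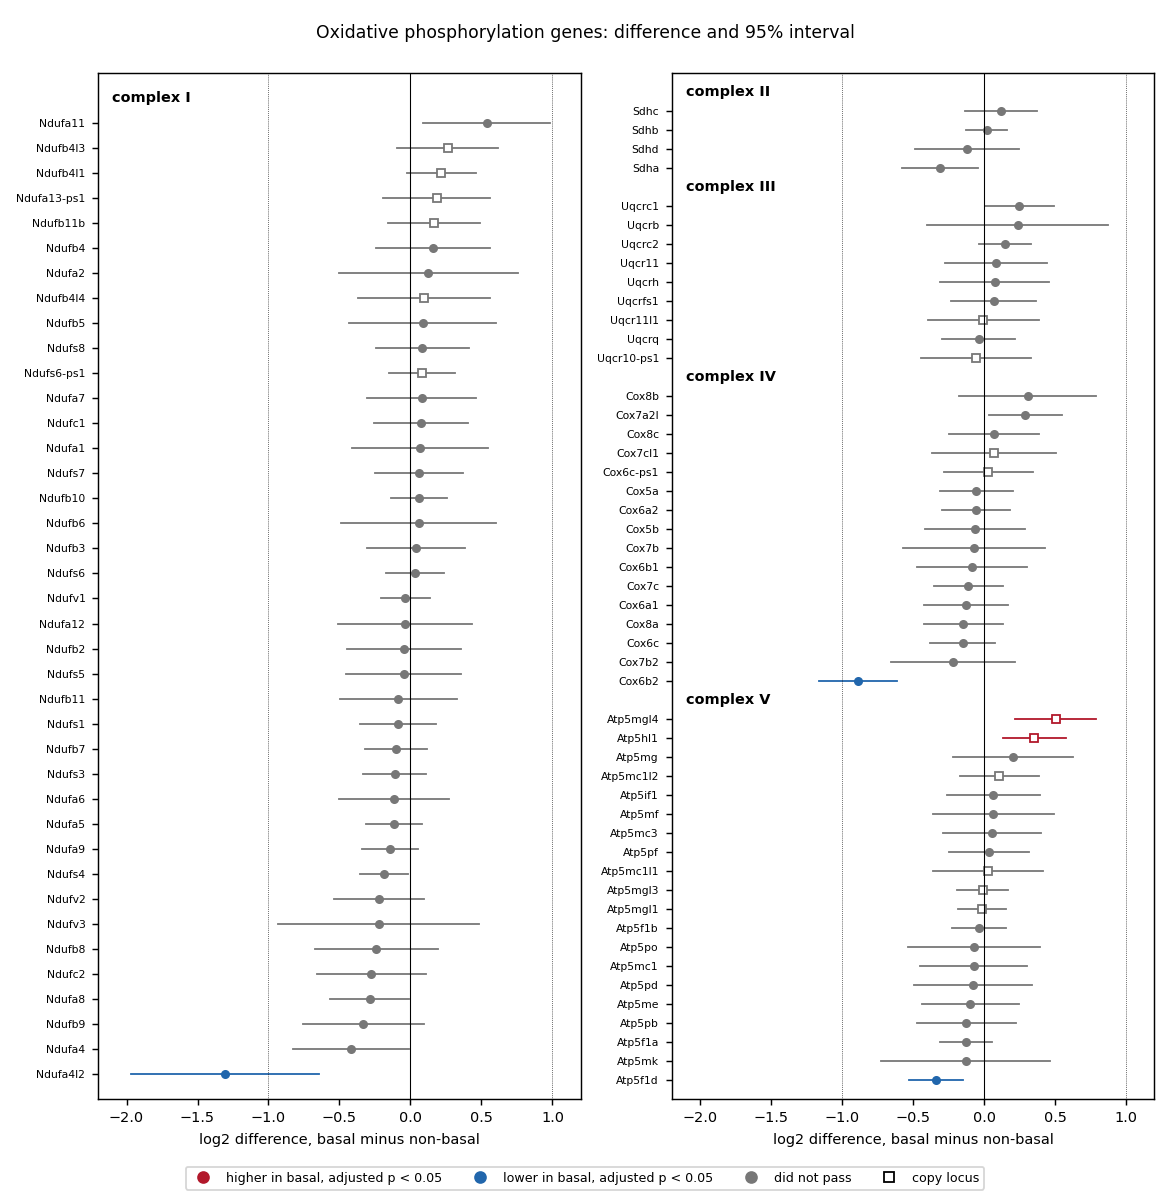
Log2 difference, basal minus non-basal, with its 95% interval for each of the 88 genes, ordered by complex. Filled points are subunit genes, open squares copy loci, and dotted lines mark a 2-fold difference. The intervals of 86 genes lie within the dotted lines, and Ndufa4l2 at -1.31 and Cox6b2 at -0.89 lie farthest to the left.

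Complex I, which takes electrons from NADH, had by symbol 1 gene lower, 0 higher and 38 that did not pass. That is 2.56% called, against 14.9% of all genes. The lower gene, Ndufa4l2, was counted here by its symbol, although its relative Ndufa4 is now placed with complex IV. Over the 39 members the median was -0.04, and over the 33 that are not copy loci it was -0.05. Its matrix arm carries the flavin and the iron-sulphur clusters, and the 6 genes of its core measured here had a median of -0.06 and a range of -0.22 to 0.08. Ndufv1, which binds NADH and the flavin, had log2 values of 9.15, 9.09 and 9.09 on basal arrays, against 9.24, 9.13 and 9.06 on non-basal arrays. The arrays of the fractions overlapped, and the difference was -0.04 with a 95% interval of -0.21 to 0.14. Ndufs1, the largest iron-sulphur subunit, had 8.51, 8.46 and 8.78 on basal arrays and 8.78, 8.68 and 8.56 on non-basal arrays, a difference of -0.09 ± 0.11 (SE).

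Among the accessory subunits of the matrix arm, 9 genes had a median of -0.11 and a range of -0.23 to 0.13. Ndufs4, which is needed for a stable NADH-binding module, had 9.19, 9.31 and 9.24 on basal arrays, against 9.51, 9.40 and 9.39 on non-basal arrays. All 3 basal values were lower, but the difference of -0.19 ± 0.0694 (SE) did not pass, with a limma adjusted p of 0.136. Ndufa6, whose promoter is printed above, differed by -0.11 ± 0.158 (SE).

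The 16 accessory subunits of the proton-pumping membrane arm had a median of -0.01. Ndufa11, one of these and needed to assemble the complex, was the member of complex I with the highest difference. It had 10.62, 10.64 and 10.10 on basal arrays, against 10.13, 9.92 and 9.69 on non-basal arrays. Basal array 3 fell within the range of the non-basal arrays, and the difference of 0.54 (95% interval 0.09 to 0.99) had an adjusted p of 0.114 with limma. Without that array it was 0.71, with an adjusted p of 0.0297, and in the other 5 fits that left out an array it did not pass, with values down to 0.43 and adjusted p up to 0.308. Ndufb9 was at -0.33 and Ndufa8 at -0.29, with limma adjusted p of 0.26 and 0.156.

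Ndufa4l2 was the complex I symbol that passed, and it had the largest difference of all 88 members. It is a relative of Ndufa4 whose transcript is known to be induced by hypoxia, and despite its name Ndufa4 is now placed with complex IV. Ndufa4l2 had log2 values of 7.10, 6.40 and 6.63 on basal arrays, against 7.52, 8.32 and 8.21 on non-basal arrays. The fractions did not overlap, and the means were 6.71 ± 0.358 in basal and 8.02 ± 0.433 in non-basal (SD, n = 3 each). The log2 difference was -1.31 ± 0.27 (SE), or 2.47-fold lower in basal, with a limma adjusted p of 0.0269. The call was lost without basal array 2, basal array 3, non-basal array 2 or non-basal array 3, with adjusted p of 0.0644 to 0.118, and with the difference between -1.27 and -1.15.

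Ndufa4 itself had 10.37, 10.43 and 10.37 on basal arrays, against 11.20, 10.61 and 10.62 on non-basal arrays. The basal values were all lower, yet the first non-basal array set much of the gap, and the difference of -0.42 (95% interval -0.83 to -0.01) did not pass (limma adjusted p 0.158).

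Complex II, succinate dehydrogenase, links the tricarboxylic acid cycle to the chain, and 0 of its 4 genes passed. Sdha, the flavoprotein that oxidises succinate, had 9.91, 9.83 and 10.20 on basal arrays and 10.35, 10.26 and 10.26 on non-basal arrays. Its basal values were all lower, at a difference of -0.31 ± 0.11 (SE) and a limma adjusted p of 0.124. With single arrays left out it was -0.42 to -0.23 and passed in 1 of 6 fits, that without basal array 3 (adjusted p 0.0165, otherwise up to 0.309). Sdhb, the iron-sulphur subunit, had 9.30, 9.39 and 9.33 on basal arrays and 9.31, 9.35 and 9.31 on non-basal arrays, so that its 95% interval was -0.13 to 0.16. The membrane anchors Sdhc and Sdhd had overlapping arrays, with differences of 0.12 ± 0.104 and -0.12 ± 0.15 (SE).

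Complex III had the highest median of the 5 complexes, 0.08, but 0 of its 9 members passed. Uqcrc1, a core protein, had 9.55, 9.69 and 9.45 on basal arrays, against 9.46, 9.21 and 9.28 on non-basal arrays. The lowest basal value lay just under the highest non-basal value, and the difference was 0.25 ± 0.0997 (SE; limma adjusted p 0.159). The other core protein gene, Uqcrc2, differed by 0.15 ± 0.0744 and the Rieske iron-sulphur protein gene, Uqcrfs1, by 0.07 ± 0.122 (SE). Uqcrb, a small subunit near the ubiquinone site, differed by 0.24 ± 0.26 (SE), so its arrays spread as widely as its difference. The lowest difference was that of the copy Uqcr10-ps1, -0.06.

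Complex IV, where oxygen is reduced, had 1 gene lower of 16 (6.25% called, against 14.9% of all genes) and a median of -0.07. The 8 subunits made in most tissues had differences of -0.15 to -0.06, all below 0, and 0 of them passed. This shared sign did not hold in every scaling. The mean difference of the 8 was -0.10 in the RMA values and -0.12 with quantile scaling. Centring each array on its median, which raised the median over all genes to 0.10, brought that mean to -0.0018. Cox6b1, for example, went to 0.01 and Cox7b to 0.03, so a lower level of these 8 genes as a set is not established. Cox5a had 10.88, 10.99 and 10.73 on basal arrays and 11.09, 10.84 and 10.84 on non-basal arrays, which overlap, with a 95% interval of -0.31 to 0.20. Cox6c was at -0.15 with a limma adjusted p of 0.342.

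The restricted isoforms spanned a wider range, -0.89 to 0.31. Cox6b2, an isoform known from testis and sperm, had the lowest adjusted p of the 88 genes. It had 6.93, 6.87 and 6.76 on basal arrays, against 7.54, 7.92 and 7.77 on non-basal arrays. The fractions stood well apart, with means of 6.85 ± 0.0865 in basal and 7.74 ± 0.189 in non-basal (SD, n = 3 each). The log2 difference was -0.89 ± 0.112 (SE), 1.85-fold lower in basal, with a limma adjusted p of 0.00565, and it passed with each array left out in turn (0.00459 to 0.0409). Its widely expressed counterpart Cox6b1 had 10.16, 10.02 and 10.16 on basal arrays, against 10.54, 9.96 and 10.09 on non-basal arrays, and the 95% interval of its difference was -0.47 to 0.30.

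Cox4i2, the lung isoform of subunit 4 and also known to respond to hypoxia, lies outside the symbol rule but belongs to the same complex. Cox4i2 had 7.002, 6.74 and 7.002 on basal arrays, against 7.78, 8.06 and 7.69 on non-basal arrays. The fractions did not overlap, and the difference was -0.93 ± 0.127 (SE), 1.90-fold lower in basal, with a limma adjusted p of 0.00736 and a range of 0.0153 to 0.0380 with each array left out. The common isoform Cox4i1 had 10.16, 10.18 and 9.63 on basal arrays and 10.30, 9.90 and 9.98 on non-basal arrays, a difference of -0.07 ± 0.184 (SE).

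The muscle isoforms Cox6a2 and Cox8b and the testis isoforms Cox7b2 and Cox8c did not pass with all arrays. Their means, 3.91 to 6.87, lay near or below the array medians of 6.63 to 6.70. A difference in them could thus be missed. The basal means of Cox6b2, Cox4i2 and Ndufa4l2, at 6.85, 6.92 and 6.71, were near those medians too. Cox8b had 6.40, 6.38 and 5.74 on basal arrays, against 5.72, 5.85 and 6.03 on non-basal arrays. Basal arrays 1 and 2 were highest and basal array 3 lay among the non-basal ones, giving 0.31 ± 0.197 (SE; limma adjusted p 0.35), and with single arrays left out it was 0.20 to 0.52 and passed in 1 of 6 fits, that without basal array 3 (adjusted p 0.0323, otherwise up to 0.631). Cox6a2 differed by -0.06, Cox7b2 by -0.22 and Cox8c by 0.07, with overlapping arrays. Cox7a2l, which helps to join complexes III and IV into supercomplexes, had 10.30, 10.27 and 9.96 on basal arrays and 9.86, 9.94 and 9.85 on non-basal arrays. All its basal values were higher, at 0.29 ± 0.106 (SE), but it did not pass with all arrays (limma adjusted p 0.129). Of the 6 fits with an array left out it passed in 1, that without basal array 3, at 0.40 with an adjusted p of 0.0153, and otherwise was as low as 0.23 with an adjusted p up to 0.325.

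The change of each restricted isoform against its widely expressed counterpart was taken within arrays for 7 pairs. The log2 difference of Cox4i2 over Cox4i1 changed by -0.86, basal minus non-basal, and that of Cox6b2 over Cox6b1 by -0.80. For both pairs the 3 basal arrays lay below the 3 non-basal arrays. That of Ndufa4l2 over Ndufa4 changed by -0.89, but here non-basal array 1 lay among the basal arrays. Cox7b2 against Cox7b changed by -0.15, Cox6a2 against Cox6a1 by 0.07, Cox8b against Cox8a by 0.45 and Cox8c against Cox8a by 0.22, all with overlapping arrays. An exact permutation test of 3 against 3 arrays cannot go below a two-sided p of 0.1, so none of these pairs could pass 0.05.

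**Figure D2:**
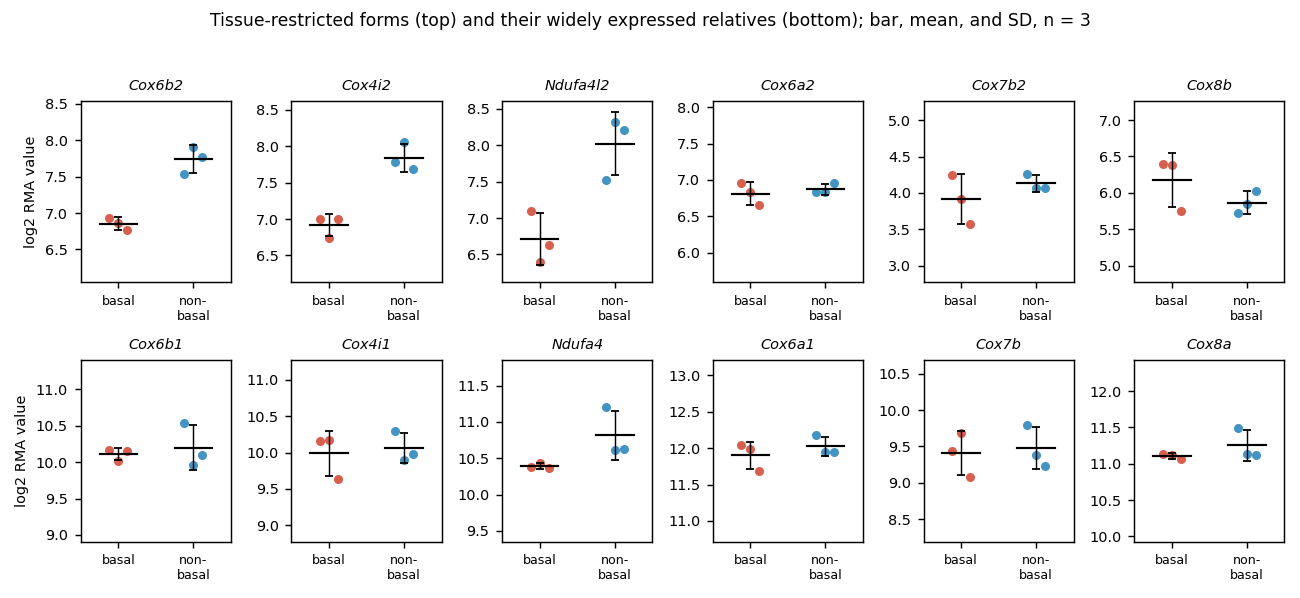
Log2 values of restricted isoforms (top) and their widely expressed counterparts (bottom) on each array, basal left of non-basal, with the mean (bar) and SD of each fraction (n = 3). Cox6b2, Cox4i2 and Ndufa4l2 lie lower on every basal array, while Cox6b1 and Cox4i1 overlap between the fractions.

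Some markers of other cells were lower in the basal fraction, as were Cox6b2, Cox4i2 and Ndufa4l2. The remaining restricted isoforms, with means near or below the array medians, did not pass. Ndufa4l2 and Cox4i2 are known, from mouse, as transcripts of pericytes, the mural cells of small vessels. Rgs5, another such transcript, differed by -3.00 ± 0.248 (SE; limma adjusted p 0.00234). The smooth muscle list had mean deviations of -1.25 to -0.535 on basal arrays and 0.892 to 1.05 on non-basal arrays. Its mean difference was -1.95, and lists of other cells were lower too, at -3.81 for fibroblasts, -1.76 for lymphocytes and -1.65 for endothelium. Of the sperm and spermatid markers, 1 of 10 passed (10%, against 14.9% of all genes). This was Smcp at -1.27 ± 0.256 (SE; limma adjusted p 0.0248), the lowest difference of the list. The median of the list was only -0.10, and 1 of its 10 genes had a mean of 7 or more in either fraction. The list's mean deviations, Smcp included, were -0.121 to -0.074 on basal and 0.026 to 0.208 on non-basal arrays. The part of these cells in the isoform differences was not tested.

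Complex V had 2 genes higher and 1 lower of 20, with a median of -0.01, and both higher genes were copies. The share called, 15.0%, was close to that of all genes (14.9%). Atp5f1d, the delta subunit in the rotating central stalk, had 11.44, 11.37 and 11.21 on basal arrays, against 11.71, 11.68 and 11.64 on non-basal arrays. All basal values were lower, and the difference of -0.34 ± 0.0784 (SE) was 1.26-fold, with a limma adjusted p of 0.0384. It passed in 1 of the 6 fits that left out an array, that without basal array 3 (adjusted p 0.0413), the others giving 0.0660 to 0.114. It was -0.24 with an adjusted p of 0.132 after centring on the array median.

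In the catalytic head, the arrays of the fractions overlapped. Atp5f1a had 11.04, 10.97 and 10.89 on basal arrays and 11.18, 11.06 and 11.04 on non-basal arrays, and Atp5f1b had 11.69, 11.64 and 11.49 on basal and 11.71, 11.63 and 11.59 on non-basal arrays. These alpha and beta subunits form the sites where ATP is made, and their differences were -0.13 ± 0.0745 and -0.04 ± 0.0781 (SE). The 10 stalk and membrane subunits had differences of -0.13 to 0.20, the highest being Atp5mg, a membrane subunit, at 0.20 ± 0.173 (SE). Atp5if1, the inhibitor that blocks ATP hydrolysis by the complex, differed by 0.07 ± 0.135 (SE).

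Of the 2 copies that passed, 1 was dim and 1 is a pseudogene. Atp5mgl4 had 4.76, 4.90 and 5.10 on basal arrays, against 4.57, 4.34 and 4.33 on non-basal arrays, a difference of 0.51 ± 0.117 (SE; limma adjusted p 0.0386). It was 1 of 4 members with a mean under 5 in both fractions, the others being Cox6c-ps1, Cox7cl1 and Cox7b2, and 84 of the 88 reached that level. Atp5hl1, a pseudogene in RefSeq, had 8.38, 8.28 and 8.58 on basal arrays, against 8.07, 8.08 and 8.02 on non-basal arrays, a difference of 0.36 ± 0.0898 (SE; limma adjusted p 0.0497). With single arrays left out, Atp5mgl4 passed only without non-basal array 1 (adjusted p 0.0330, otherwise up to 0.141) and Atp5hl1 only without basal array 3 (0.0449, otherwise up to 0.158). Of the 16 copy loci, 12 had a positive difference, with a median of 0.09.

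Of the other genes that the symbol rule misses, besides Cox4i2, the electron carrier and 2 subunits did not pass. Cytochrome c, Cycs, differed by -0.02, cytochrome c1 of complex III, Cyc1, by -0.08, and the acyl carrier subunit of complex I, Ndufab1, by -0.12, with limma adjusted p of 0.906, 0.533 and 0.533. The rule also left out 8 probe sets that carry a matching symbol together with another, whose differences were -0.31 to 0.39. The probe set of Ndufa10 and Ndufa10l1 was at -0.31 ± 0.0861 (SE) and had the lowest limma adjusted p of the 8, 0.0930 over all probe sets.

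The subunit genes shared a pattern across arrays that did not follow the fractions. The mean deviation of the 72 subunit genes from their own averages was 0.0245, 0.0663 and -0.182 on basal arrays and 0.210, -0.0637 and -0.0548 on non-basal arrays. Basal array 3 was thus the lowest and non-basal array 1 the highest of the 6. Basal array 3 was the lowest basal array for 57 of the 72 genes (79.2%), against 39.3% of all genes. Non-basal array 1 was the highest non-basal array for 63 of them (87.5%), against 45.3% of all genes, and 51 of the 72 (70.8%) did both, against 17.5% of all genes. Other lists had parts of this pattern too. Basal array 3 was the lowest basal array for 87.5% of the 24 import and inner membrane genes, 78.5% of the 144 cytosolic and 58.3% of the 72 mitochondrial ribosomal protein genes. Non-basal array 1 was the highest non-basal array for 84.7% of the mitochondrial and 23.6% of the cytosolic ribosomal protein genes, 70.8% of the import genes and 69.0% of the assembly factors.

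Within each fraction, the same arrays were lowest and highest in each of the 5 complexes taken apart. In complex III without copies the mean deviations were 0.119, 0.188 and -0.131 on basal arrays and 0.122, -0.166 and -0.132 on non-basal arrays. In complex V without copies they were 0.0684, 0.0756 and -0.214 on basal arrays and 0.208, -0.0712 and -0.0672 on non-basal arrays. Marker lists also differed on these arrays. The principal cell list stood at -0.634, -0.340 and 0.196 on basal arrays and 0.432, 0.168 and 0.178 on non-basal arrays, and the clear and narrow cell list at -0.149, -0.213 and 0.093 on basal arrays and 0.416, -0.129 and -0.019 on non-basal arrays. Non-basal array 1 was the highest non-basal array in both lists, as for the subunits, whereas basal array 3 was the highest basal array in both. Other lists stood further apart on these arrays. The fibroblast list was at -2.69, -2.16 and -0.876 on basal arrays and 1.30, 2.28 and 2.14 on non-basal arrays, and the basal epithelial list at -1.72, -1.03 and -0.999 on non-basal arrays. The macrophage list was at -0.287, 0.844 and 0.703 on non-basal arrays, with non-basal array 1 again apart. The part of these markers in the array pattern was not tested.

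**Figure D3:**
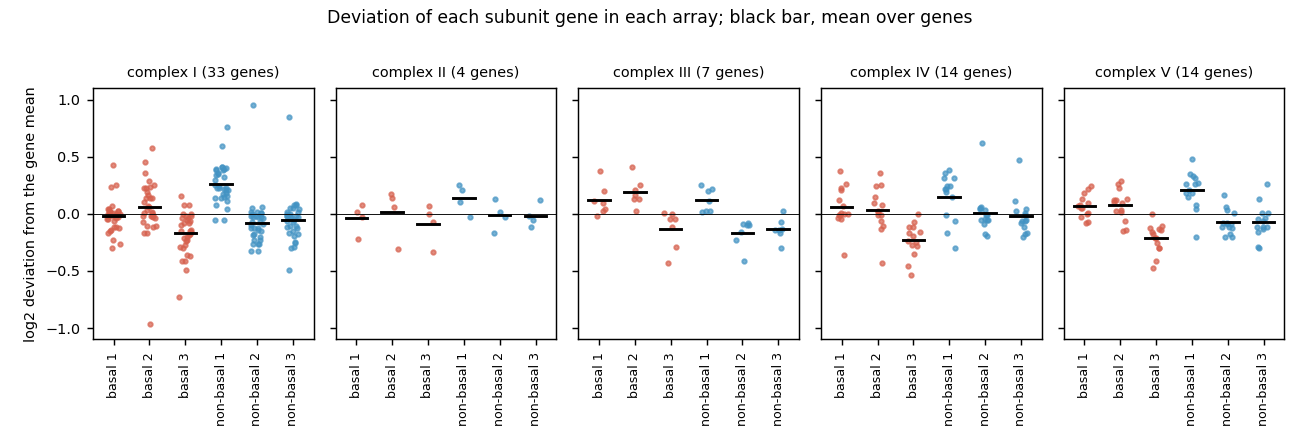
Deviation of each of the 72 subunit genes (points) from its own average on each of the 6 arrays, on the log2 scale, by complex, with basal arrays left of non-basal arrays and the mean over genes as a bar. In complex V the means lie lowest on basal array 3, at -0.214, and highest on non-basal array 1, at 0.208.

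The result was also taken without basal array 3 and non-basal array 1, which was decided after the data had been seen. These arrays were singled out by the members' own values, low on basal array 3 and high on non-basal array 1, so that leaving them out must raise the differences on average, and the direction of the change is no finding. Then 10 members were higher (11.4%) and 3 lower (3.41%), against 13.8% and 11.7% of all genes, and the median difference was 0.147 for members and 0.0138 for all genes. The 3 lower genes were Ndufa4l2 at -1.52, Cox6b2 at -0.94 and Sdha at -0.39. Non-basal array 1 held the lowest non-basal value of Ndufa4l2 and Cox6b2, and basal array 3 the highest basal value of Sdha. The change in these genes thus also follows from the arrays left out and is no finding. Atp5f1d no longer passed (adjusted p 0.0502 with limma). The highest of the 10 was Ndufa11 at 0.82, and the others lay between 0.28 and 0.49.

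Other lists of mitochondrial genes had few or no calls. Of the 42 assembly factors measured 0 passed, with a median of -0.0025, and of 72 mitochondrial ribosomal protein genes 0 passed, with a median of 0.03. Of 24 genes of mitochondrial import and inner membrane structure and of 18 genes of mitochondrial biogenesis, which includes the regulators named above, 0 passed in each. At an unadjusted p under 0.05 there were 2, 7, 1 and 5 genes in these 4 lists. Sdhaf1, an assembly factor of complex II, was at -0.59 ± 0.175 (SE; limma adjusted p 0.0788).

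Of 16 genes of pyruvate dehydrogenase and the tricarboxylic acid cycle, which feed the chain, 3 were higher in basal and 0 lower. That is 18.8% called, near the 14.9% of all genes, with a median of -0.01. Idh3a, the catalytic subunit of the NAD-linked isocitrate dehydrogenase, averaged 10.70 ± 0.163 in basal and 9.52 ± 0.0577 in non-basal (SD, n = 3 each), a difference of 1.19 ± 0.0978 (SE; limma adjusted p 0.00234) that passed with each array left out. Dlat, a core enzyme of pyruvate dehydrogenase, was at 0.49 ± 0.0858 and Idh2 at 0.31 ± 0.0605 (SE), with limma adjusted p of 0.0151 and 0.0234. Dlat lost its call without basal array 2, non-basal array 2 or non-basal array 3 (up to 0.0726), and Idh2 also without basal array 1 (up to 0.0850). Citrate synthase, Cs, often used as a measure of mitochondrial content, did not pass at 0.20 (adjusted p 0.295).

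Of 10 glycolysis genes, 1 was higher (10% called, against 14.9% of all genes), the hexokinase gene Hk2 at 0.55 ± 0.0796 (SE; limma adjusted p 0.00844). The median of the list was -0.12. At an unadjusted p under 0.05, 4 others had negative differences, Ldhb at -0.55, Pfkm at -0.27, Aldoc at -0.84 and Gpi at -0.23, with limma adjusted p of 0.0630 to 0.115. Of 19 genes of mitochondrial fatty acid oxidation 2 were lower, Acaa2, a thiolase, at -0.37 ± 0.0704 and Cpt1a, which admits fatty acids to mitochondria, at -0.38 ± 0.0928 (SE; limma adjusted p 0.0201 and 0.0436). The share of that list called was 10.5%, below the 14.9% of all genes. Acaa2 lost its call without basal array 1 or 2 or non-basal array 2 or 3 (up to 0.0734), Cpt1a passed only without basal array 3 (0.00913, otherwise up to 0.150), and Hk2 passed throughout. Cytosolic ribosomal protein genes, many of them copy loci, had 11 of 144 higher and 0 lower, with a median of 0.34. The 7.64% called higher was close to the share of all genes called higher, 7.71%. The list's mean deviations were 0.318, 0.311 and -0.110 on basal arrays and -0.203, -0.151 and -0.166 on non-basal arrays, so basal array 3 lay close to the non-basal arrays.

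**Figure D4:**
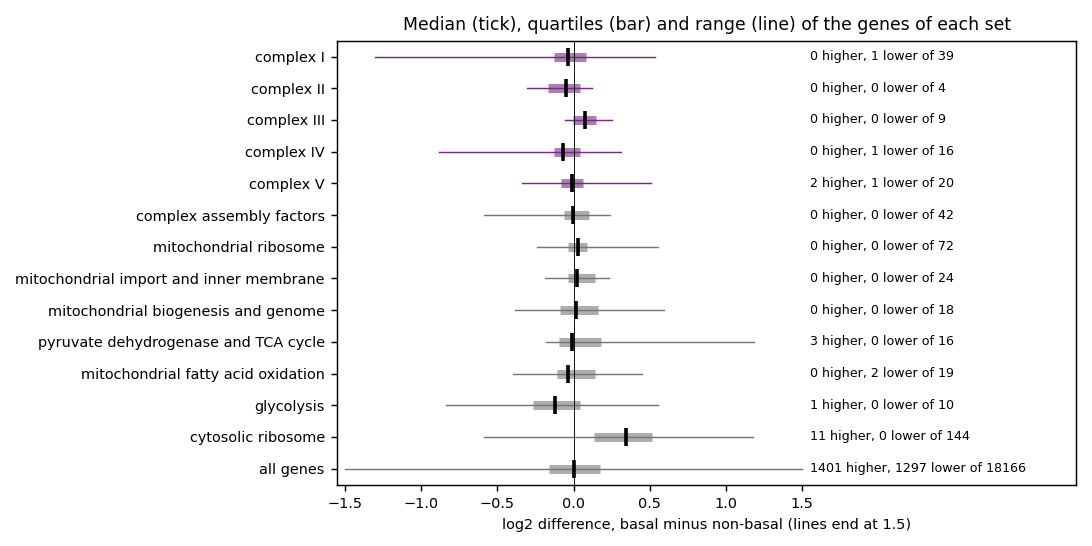
Median, quartiles and range of the log2 difference, basal minus non-basal, for each complex, each other gene list and all genes, with the numbers called higher and lower. The medians of the 5 complexes lie between -0.07 and 0.08, and that of the cytosolic ribosome list at 0.34.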

How the data were processed

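Total RNA of 3 basal and 3 non-basal arrays was measured, and groups and replicate numbers came from the sample titles. The authors deposited log2 values made by RMA with the Affymetrix Expression Console software, per the submitters' processing notes, with versions and genome build not given in the sources used here. Of 36685 probe sets, 18511 carried 1 symbol, 575 several and 17599 none, and the highest-mean probe set of each gene gave 18166 genes. Dim probe sets were kept.

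Differences were fitted in R 4.3.3 by limma 3.58.1 (lmFit, then eBayes), two-sided and without a block, with Benjamini-Hochberg adjustment over all 18166 genes and a threshold of 0.05. Standard errors are limma's moderated ones. The procedure was also run on simulated data, in which each gene's values were drawn independently. Array effects shared between genes, as seen in these arrays, were not part of that simulation. Members, lists and tests were chosen with earlier results of these data known. Named were called members, the 2 smallest p-values, the highest and the lowest difference of each complex, isoform pairs, subunits the rule misses and up to 4 genes of each other list. Other genes named, Rgs5, Smcp and Ndufs1 among them, were chosen after their values were seen. Promoters are RefSeq's (GRCr8), and proteins were not compared here. Replicate numbers were not used to pair the arrays in the main fit, and whether they mark the same animal is unknown.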

Additional observations from a re-analysis of the deposited data

How the results depend on the processing

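The counts of called members were small, so a single gene moves them, and with 3 arrays a fraction differences smaller than the intervals given above could not be resolved. Of the members, Cox6b2 passed in every alternative run, and Ndufa4l2, Atp5f1d, Atp5mgl4 and Atp5hl1 each lost their call in some.

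Same-numbered arrays did not deviate together, with correlations of their deviations of 0.00519, -0.0113 and 0.00136. Arrays with unlike numbers had correlations of -0.063 to 0.064. The labels tie no array to an animal, so these values cannot settle whether same-numbered arrays share one, and pairing is unknown. With the replicate number as a block, 1 member was higher and 1 lower, in complex I 1 higher (Ndufa11, limma adjusted p 0.0436) and 0 lower, in complex V 0 and 0, and in the 8 other lists 9 higher and 1 lower, against 15 and 2 without it. Fewer residual degrees of freedom remain in that fit. Among subunit genes proper the block gave 1 higher and 1 lower.

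Centring arrays on the median gave 34 higher and 0 lower genes in the 8 lists and 0 lower in complex V. It also turned the signs, with 46 of the 72 subunit genes above 0 and 26 below, against 29 and 43 as deposited and 30 and 42 after quantile normalization. A filter at a fraction mean of 5, one at 7 and the intensity trend each left 1 member higher, in complex V, and the filter at 7 gave 4 lower genes in the lists. At an adjusted p under 0.01, 0 members were higher and 1 lower, in complexes I and V 0, and in the lists 2 higher and 0 lower. At 0.1 the lists had 39 higher and 7 lower. Without basal array 3 and non-basal array 1 there were 10 higher members, 9 of them subunit genes proper, with 3, 2 and 2 in complexes I, III and IV, 1 lower in complex II, 0 lower in complex V, and 102 higher and 8 lower in the lists.

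With each array left out in turn, 0 to 4 members were higher and 1 to 3 lower, and among subunit genes proper 0 to 3 and 1 to 3. Over all genes these fits gave 509 to 2068 higher and 542 to 1607 lower, against 1401 and 1297 with all arrays. The counts thus moved for all genes, not only for these. Complex I had 0 to 1 higher and 0 to 1 lower, complex II 0 to 1 lower, complex IV 0 to 2 higher, complex V 0 to 1 higher and 0 to 1 lower, and the lists 3 to 85 higher and 0 to 5 lower.

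Some differences near 0 changed sign, and the cause was not tested. After quantile normalization Uqcr10-ps1 was at 0.056 and Cox6a2 at 0.0498. After median centring Uqcr10-ps1 was at 0.0413, Cox6a2 at 0.0414, Cox4i1 at 0.0301, Cox7b at 0.0298, Cox6b1 at 0.0131, Cyc1 at 0.0166 and Cycs at 0.074. With the mean of all probe sets Cox6b1 was at 0.0634 and Cycs at 0.15. Without both arrays Uqcr10-ps1 was at 0.15, Cox4i1 at 0.23, Cox6a2 at 0.0028, Cox6a1 at 0.0587, Cox6b1 at 0.0655, Cox7b2 at 0.0219, Cox7b at 0.25, Cycs at 0.0924 and Ndufab1 at 0.0504. With single arrays left out Cox8c ranged over -0.0118 to 0.21, Uqcr10-ps1 over -0.20 to 0.10, Cox4i1 over -0.16 to 0.11, Cox6a2 over -0.13 to 0.024, Cox7b over -0.21 to 0.0927, Cycs over -0.12 to 0.0887 and Cox6b1 over -0.20 to 0.0867.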
